A study of Eohaustorius estuarius with 16 samples.

Results

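The 200 brightest probes on arrays of whole-body RNA from the estuarine amphipod Eohaustorius estuarius, a burrowing crustacean used to test sediment toxicity, are described here. They were 200 of 8507 non-control probes (2.35%). A probe's level was its processed signal divided by the 75th percentile of its array, set to 0.02 where it was lower, on the log2 scale and averaged over the probe's spots. Members were the 200 probes of highest mean level over all 16 arrays, after leaving out 86 probes whose SD within groups was 2 or more and 91 probes whose exposed and control values did not overlap. The levels themselves chose the members, so their brightness is a description, as is every difference between exposed and control arrays below.

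The exposed group was 8 extracts of animals kept for 10 days in sediment spiked with cyfluthrin at a nominal 1.6 µg/kg, and the control group was 8 extracts of animals kept for 10 days in sediment spiked with solvent alone. A single laboratory prepared all extracts, and the arrays described here were run in laboratory A of 6 in an interlaboratory comparison; the labels give no strain, sex, age or field site. Each extract was labelled with Cy3 and put on 1 array. Nothing beyond the design text says how many animals or cultures lay behind an extract, so the spread below is that between these 16 samples.

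Cyfluthrin is a pyrethroid insecticide, and pyrethroids hold open the sodium channels by which nerve cells fire. In RNA from a whole crustacean the abundant messages usually include those for ribosomal proteins, for muscle proteins such as actin and myosin, for mitochondrial respiratory enzymes, for cuticle proteins, for digestive enzymes and for the blood protein hemocyanin. The array names its probes only by contig number, the number of an assembled transcript, and no member could be tied to any of these groups. Gene lists and tissue markers therefore matched 0 probes, and the labelled tissue could not be checked against its markers. A probe's brightness also depends on the probe itself, so the order of brightness among members is not an order of RNA amounts. In whole bodies, fewer cells of a type and less RNA per cell cannot be told apart.

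The 16 arrays lay on 2 slides, with replicates 1 to 4 of each group on slide 1 and replicates 5 to 8 on slide 2, which were extracted from the scans with different protocols. On each slide the control arrays filled slide row 1 and the cyfluthrin arrays slide row 2, so that row and exposure cannot be told apart. Control and cyfluthrin arrays of the same replicate number shared a slide column. The 75th percentile of processed signal ran from 251 to 633 on cyfluthrin arrays and from 240 to 553 on control arrays. It averaged 508 ± 102 on slide 2 and 302 ± 45.9 on slide 1 (SD, n = 8 each). One control array, replicate 3 on slide 1, had the lowest share of signal in the members, 31.6%, and the highest median level over all tested probes, -1.17. Tests were run on the 7556 probes that stood well above background on 8 arrays or more.

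The members' mean levels ran from 7.89 for contig_42 to 3.28 for contig_238, with a median of 3.98. On the linear scale these are 237 times, 9.70 times and 15.8 times the 75th percentile of the array. All 200 members were well above background on every array on which a spot was kept. For 15 members every spot was flagged on 1 to 4 arrays, and the value there was left out. No member spot was saturated. The highest processed signal, 150748, belonged to contig_42, against a saturation value of at least 616091. The lowest, 451, belonged to contig_1015, against a median local background of 25.

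The brightest member, contig_42, had levels from 7.25 to 7.91 with a median of 7.69 on cyfluthrin arrays, and from 7.73 to 8.56 with a median of 8.13 on control arrays. The groups overlapped only because control replicate 3, at 7.73, lay below 3 of the cyfluthrin arrays. It was the brightest probe on 13 of 16 arrays. On the other 3 arrays, cyfluthrin replicates 1 and 4 and control replicate 2, the brightest probe was contig_8297.

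contig_2392 had levels from 6.81 to 7.31 with a median of 7.12 on cyfluthrin arrays, and from 6.88 to 7.51 with a median of 7.28 on control arrays. Its arrays lay close together, with an SD within groups of 0.21. contig_8297 was less even, at 6.38 to 8.06 with a median of 6.77 on cyfluthrin arrays and 5.75 to 8.24 with a median of 6.36 on control arrays. Its 4 highest arrays were 2 cyfluthrin and 2 control arrays, all on slide 1, and slide 1 also held its lowest array, control replicate 3.

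contig_407 had levels from 5.93 to 6.69 with a median of 6.24 on cyfluthrin arrays, and from 5.51 to 6.42 with a median of 6.25 on control arrays. contig_530 had levels from 5.58 to 6.30 with a median of 5.95 on cyfluthrin arrays, and from 5.60 to 6.57 with a median of 5.97 on control arrays. For both contigs, every cyfluthrin array of slide 2 was below every cyfluthrin array of slide 1. The same held for contig_2392, contig_2945, contig_1481 and contig_1185. contig_2945 had levels from 5.62 to 6.20 on cyfluthrin arrays and from 5.56 to 6.17 on control arrays, and contig_1481 had levels from 5.14 to 6.11 on cyfluthrin arrays and from 5.18 to 5.96 on control arrays. The 2 groups covered nearly the same range in each.

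contig_1961 stood at 5.54 to 6.01 on cyfluthrin arrays and at 5.13 to 5.54 on the 6 control arrays with a value. Its groups touched at 5.54 to 2 decimals, which makes it a member that the overlap rule only just let in. contig_4126 had levels from 4.88 to 6.84 with a median of 6.04 on cyfluthrin arrays, and from 4.60 to 5.54 with a median of 5.14 on control arrays. Of its cyfluthrin arrays, 7 lay above every control array and replicate 7 lay among the controls. contig_1185 had levels from 5.14 to 5.83 on cyfluthrin arrays and from 5.27 to 5.90 on the 7 control arrays with a value.

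**Figure D1:**
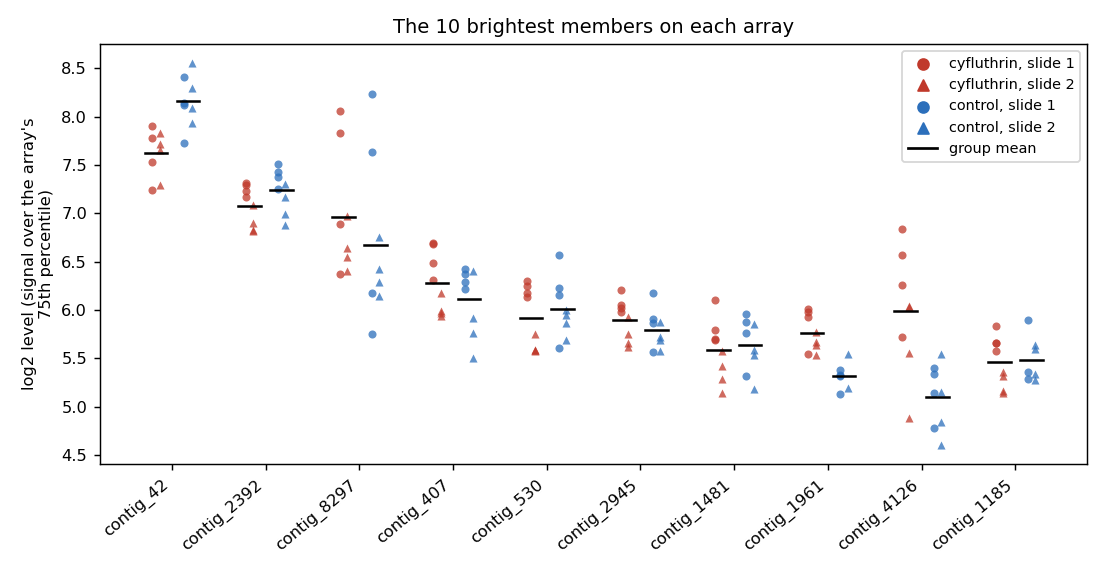
Level (log2 of signal over the 75th percentile of the array) of the 10 brightest members on each array, with cyfluthrin arrays left of control arrays, circles for slide 1, triangles for slide 2 and a bar at the group mean (n = 8 each, except 6 control arrays for contig_1961 and 7 for contig_1185). contig_42 stands above the rest on most arrays, and contig_8297 reaches it on 3.

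At the lower end, contig_2086, contig_8230 and contig_238 were the last members, each with a mean of 3.28. The first probes outside were contig_1621 at 3.28, contig_6063 at 3.27 and contig_2549 at 3.27. Of the probes as bright as a member, 9 were left out. The 4 left out because their groups did not overlap included contig_2434, with means of 4.08 on cyfluthrin and 5.13 on control arrays, and contig_6094, with means of 5.98 on cyfluthrin and 2.53 on control arrays. The 5 left out for their spread included contig_2336 and contig_2394, with SDs within groups of 2.85 and 3.47. Across all probes 1.07% had groups that did not overlap.

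Membership varied with the array. There were 85 members among the 200 brightest probes of all 16 arrays, 59 on 12 to 15 arrays, 32 on 8 to 11 and 24 on fewer than 8. The fewest arrays for any member was 4. Between 145 and 177 members were among the 200 brightest probes of a cyfluthrin array, and between 154 and 174 of a control array.

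Members held 35.0% ± 2.37 of the summed scaled signal on cyfluthrin arrays and 34.5% ± 1.96 on control arrays (SD, n = 8 each). The ranges, 32.5% to 38.5% on cyfluthrin arrays and 31.6% to 37.5% on control arrays, overlapped almost fully. The 10 brightest members held 7.28% ± 0.85 on cyfluthrin arrays and 7.30% ± 0.71 on control arrays. contig_42 alone held 1.64% ± 0.30 on cyfluthrin arrays and 2.34% ± 0.43 on control arrays. By slide, the members' share was 33.6% ± 1.12 on slide 2 and 35.9% ± 2.32 on slide 1 (SD, n = 8 each).

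The spread of a member among arrays of one group was small. The median SD within groups over members was 0.28, with quartiles of 0.23 and 0.37. It was 0.27 for the next 200 probes in brightness and 0.28 for the 600 after those, so these bright probes outside the list had medians within 0.01 of the members'. It was 0.45 for the next-to-dimmest 2500 and 0.73 for the dimmest 1883 tested probes, and 0.43 over all tested probes. Here and below, these sets by brightness leave out the probes that the rule removed, whereas all tested probes include them. Among members 74 had an SD below 0.25, 21 had one above 0.5 and 3 had one above 1.

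contig_3271 had the smallest SD, 0.14, with levels from 3.82 to 4.17 on cyfluthrin arrays and from 3.68 to 4.02 on control arrays. contig_6224 followed at 0.15, with levels from 3.09 to 3.53 on cyfluthrin arrays and from 3.21 to 3.72 on control arrays. The most variable member was contig_1015, with an SD of 1.62. Its levels ran from 0.84 to 5.82 with a median of 2.62 on cyfluthrin arrays, and from 2.04 to 6.31 with a median of 5.34 on control arrays. Of the control arrays, replicate 8 was low at 2.04 and the next was at 4.02, while 5 of the cyfluthrin arrays were below 3 and 3 were above 4. The next widest were contig_238 (1.09), whose levels ran from 1.25 to 4.91 on cyfluthrin arrays and from 2.08 to 4.62 on control arrays, and contig_2370 (1.01), whose arrays separated by slide, as given below. The nearest probe beyond the limit of 2 among those as bright as members had an SD of 2.01.

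**Figure D2:**
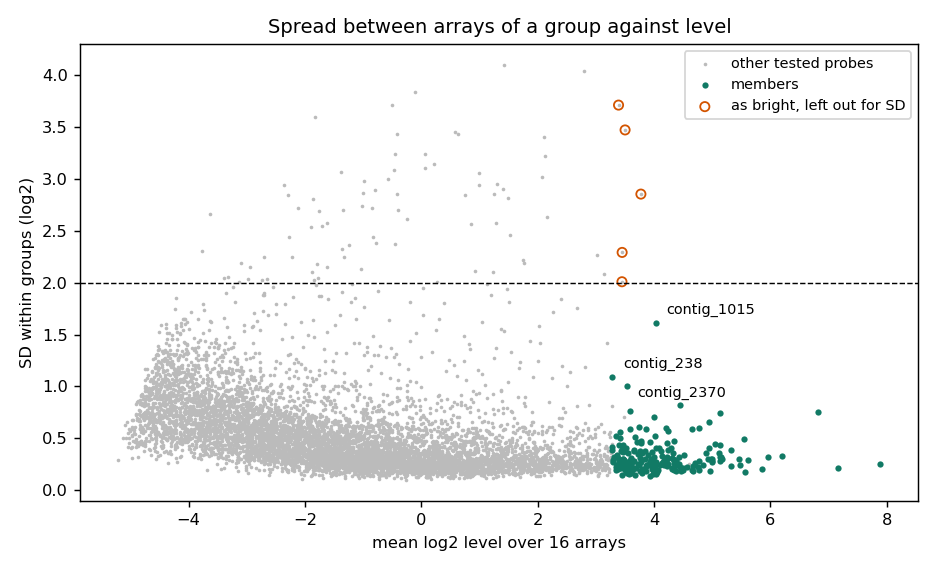
SD within groups (log2) against mean level (log2) for all tested probes, with members in green and the 5 probes as bright as members but left out for their SD ringed; the dashed line is the limit of 2. Members had a median SD of 0.28, and contig_1015 was the widest of them.

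Most tested probes were spotted more than once. Among members 147 had 2 spots and 53 had 1. The SD between the spots of a member on one array had a median of 0.058 over the 147 members, against 0.093 over the 5535 tested probes with 2 spots. In 144 of the 147 the SD between arrays of a group was larger than that between spots. The ratio, taken for each member, had a median of 2.82. The difference between cyfluthrin and control arrays, computed from each spot alone, had the same sign at both spots in 129 of the 147, with a median gap of 0.055. Spots of a probe share the labelling, hybridisation, scan and sequence, so their spread is spot error alone. The spread between arrays of a group holds the error of those steps and the difference between slides, beside that between extracts.

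The rule left out every probe whose exposed and control values stood apart, which bounds the differences that follow. The median difference of members, cyfluthrin minus control, was 0.02 on the log2 scale, with quartiles of -0.15 and 0.15, against a median of -0.07 over all 7556 tested probes. The median size of the difference was 0.15 for members and 0.19 for all tested probes. A difference of at least 1.5-fold was seen in 18 members, 10 higher and 8 lower in exposed animals, or 9% of members against 9.05% of all tested probes. At 2-fold or more there were 4 members, all lower in exposed animals, while the rule had removed the probes whose groups stood fully apart. Among all 7556 tested probes, 127 fell and 51 rose by that much in exposed animals. The lean towards lower levels at 2-fold was therefore not particular to members. At 1.5-fold it was absent in members, while 244 of all tested probes rose and 440 fell. Counting differences of any size, 111 members (55.5%) were higher in exposed animals, against 39.3% of all tested probes. The rule had filtered this contrast, so no trait of the members is read from these counts.

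By limma over all 7556 tested probes with Benjamini-Hochberg adjustment and a threshold of 0.05, 2.29% of tested probes passed for cyfluthrin against control, 1.14% higher and 1.15% lower in exposed animals. Among members 6 passed, 3 higher and 3 lower in exposed animals. With the slide as a block 3.84% of all tested probes passed, 1.8% higher and 2.04% lower, and 16 members did, 9 higher and 7 lower, the first 6 among them. Within slide 2 alone 1 member passed against 1.2% of tested probes, and within slide 1 alone 2 members passed against 1.26%. When each array was scaled to its median, or was not scaled, 0 members passed, whereas 11 did after quantile normalization. Of all tested probes, 94, 55 and 215 passed under these settings, in the same order. The rule had already removed probes by this contrast, so nothing about the members as a set is read from these counts.

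The 4 members with the most extreme differences, 2 in each direction, are given as values. contig_4126 averaged 5.99 ± 0.61 on cyfluthrin arrays and 5.10 ± 0.33 on control arrays (SD, n = 8 each), a difference of 0.89 (SE 0.24, 95% interval 0.39 to 1.39). It was 0.59 on slide 2 and 1.18 on slide 1. contig_921 averaged 4.42 ± 0.24 on cyfluthrin arrays and 3.57 ± 0.38 on control arrays, a difference of 0.85 (SE 0.16, 95% interval 0.50 to 1.20). Its levels were 4.02 to 4.72 with a median of 4.45 on cyfluthrin arrays and 3.04 to 4.21 with a median of 3.64 on control arrays, and only control replicate 1 reached into the cyfluthrin range.

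contig_1015, the most variable member, averaged 3.07 ± 1.82 on cyfluthrin arrays and 4.99 ± 1.38 on control arrays, a difference of -1.92 (SE 0.75, 95% interval -3.50 to -0.34). The difference was -0.81 on slide 2 and -3.02 on slide 1. contig_6751 averaged 3.36 ± 0.85 on cyfluthrin arrays and 4.64 ± 0.53 on control arrays, a difference of -1.28 (SE 0.33, 95% interval -1.99 to -0.58), with levels of 1.90 to 4.52 on cyfluthrin arrays and 3.83 to 5.65 on control arrays. The lowest control array, replicate 3, lay below 3 cyfluthrin arrays. Neither of these contigs nor contig_4126 was among the 6 members that passed without the slide in the fit. With the slide as a block, contig_4126 (adjusted p = 0.0325 by limma) and contig_6751 (adjusted p = 0.0301 by limma) passed, and contig_1015 did not.

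Of those 6, contig_921 and 2 further members, with differences of 0.61 and 0.65, rose in exposed animals, and contig_42, contig_8357 and 1 further member, with a difference of -0.94, fell; contig_8357 was picked, and contig_42 taken up again, after their values were seen. contig_8357 had levels of 2.48 to 3.67 with a mean of 3.05 on cyfluthrin arrays and of 3.52 to 4.15 with a mean of 3.87 on control arrays. Its difference was -0.82 (SE 0.16), and 1 cyfluthrin array, replicate 2, lay within the control range. The difference of contig_42 was -0.54 (SE 0.14, 95% interval -0.83 to -0.25), a 1.45-fold lower level. It was -0.59 on slide 2 and -0.49 on slide 1, and ran from -0.60 to -0.21 over 30 alternative settings, 7 of which kept it past the threshold. The value of -0.21 came with quantile normalization, which gives the brightest probe of every array the same level. contig_921 and contig_8357 each passed under 26 of their 30 alternatives.

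**Figure D3:**
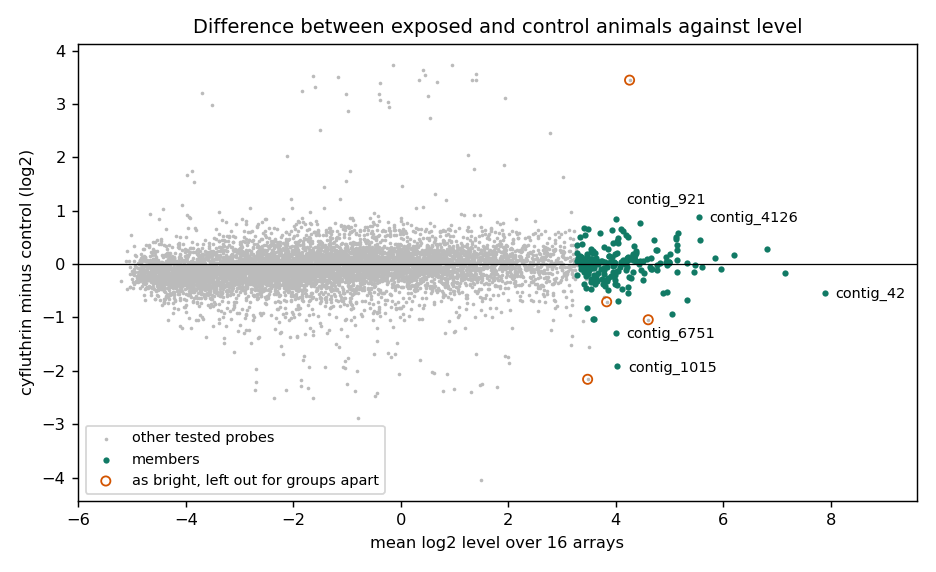
Difference between cyfluthrin and control arrays (log2) against mean level (log2) for all tested probes, with members in green and the 4 probes as bright as members but left out because their groups did not overlap ringed. Members lie between -1.92 and 0.89, with a median of 0.02.

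The slides share no sample, and the difference is set side by side for each. Over the 200 members, cyfluthrin minus control on slide 2 and on slide 1 had a Pearson correlation of 0.67 and the same sign in 125 members (62.5%). The points share the slide row and the probe. In brightness order, the next 200 probes gave 0.56 and 70% with the same sign (by Spearman's rank correlation 0.69, against 0.67 in members). The 600 after those gave 0.50 and 63.7%, and the 2000 probes with mean levels from 1.27 to -0.92 gave 0.48 and 65.7%. The next-to-dimmest 2500 gave 0.17 and 47.9%, and the dimmest 1883 gave -0.32 and 24.3%. Over all tested probes the correlation was 0.13 and 49.8% had the same sign. Without contig_1015 the correlation over members was 0.71, and over the 182 members under 1.5-fold it was 0.53.

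The median difference of members was -0.08 on slide 2 and 0.13 on slide 1, and the next 200 probes in brightness were like them, at -0.09 on slide 2 and 0.09 on slide 1. In all tested probes it was 0.08 on slide 2 and -0.20 on slide 1. Exposed animals had the higher mean in 70 members on slide 2 and in 133 on slide 1. Of all 7556 tested probes, 4601 were higher in exposed animals on slide 2 and 2541 on slide 1. A difference of at least 1.5-fold in the same direction on both slides was seen in 12 members, against 272 of all tested probes. Over both slides together, the median difference was 0.06 in members and -0.00 in all tested probes after quantile normalization, 0.10 and -0.00 after scaling to the median, and 0.21 and 0.11 without scaling.

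**Figure D4:**
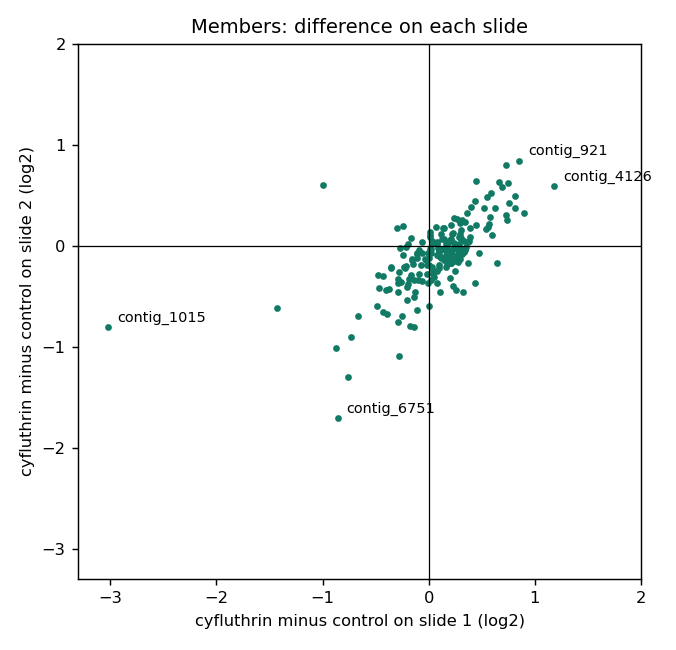
Difference between cyfluthrin and control arrays on slide 2 (vertical, log2) against that on slide 1 (horizontal, log2) for the 200 members, each from 4 arrays per group. Points follow the diagonal with a Pearson correlation of 0.67, and contig_1015 lies farthest to the left at -3.02 on slide 1.

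Whether the difference itself depended on the slide was tested by limma with an interaction term. It passed in 0 members and in 0% of all tested probes, and the lowest adjusted p among members was 0.431. At an unadjusted p under 0.05 there were 7 members (3.5%), against 816 of all tested probes (10.8%).

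The comparison of slide 2 with slide 1 was not used to choose the members, beyond the limit on SD. By limma with exposure in the fit, 18.6% of all tested probes passed, 12.1% higher and 6.5% lower on slide 2. Among members 43 passed (21.5%), 7 higher and 36 lower on slide 2. The median difference, slide 2 minus slide 1, was -0.19 in members and 0.16 in all tested probes. The other bright probes leaned the same way as the members, with medians of -0.13 in the next 200 and -0.13 in the 600 after those, while the dimmest 1883 had a median of 0.43. Slide, protocol and the samples on each slide cannot be told apart.

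This direction turned on the scaling. Without scaling the median difference was 0.55 in members and 0.88 in all tested probes. Then 143 members passed as higher and 1 as lower on slide 2, while 5811 of all 7556 tested probes passed in either direction. After scaling to the median 1 member passed as higher and 37 as lower, while 1008 of all tested probes passed. The medians were then -0.36 in members and -0.02 in all tested probes. After quantile normalization 17.2% of all tested probes passed, 8.92% higher and 8.27% lower, and 25 members passed as higher and 20 as lower, with a median difference of -0.01 in members. On the values of the authors' deposited table the same fit passed 34 members as lower and 11 as higher on slide 2. It passed 1258 of all tested probes, with medians of -0.10 in members and -0.02 in all tested probes.

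The 4 members with the most extreme slide differences, 2 in each direction, kept their sign under the scalings tried. contig_2370 had levels of 2.10 to 2.73 on the cyfluthrin arrays of slide 2 against 3.81 to 4.86 on those of slide 1, and of 2.42 to 3.72 on the control arrays of slide 2 against 3.83 to 5.05 on those of slide 1. No array of slide 2 reached one of slide 1, and the difference was -1.69 (SE 0.22, adjusted p = 0.000183 by limma). contig_2791 had levels of 4.18 to 4.71 on slide 2 against 5.04 to 6.16 on slide 1, again without overlap, and a difference of -1.12 (SE 0.14, adjusted p = 0.000167 by limma).

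contig_2298 was higher on slide 2 by 0.77 (SE 0.12, adjusted p = 0.000719 by limma), with levels of 4.12 to 4.49 on the cyfluthrin arrays of slide 2 against 3.35 to 3.93 on those of slide 1, and of 3.56 to 4.20 on the control arrays of slide 2 against 2.73 to 3.18 on those of slide 1. Within each exposure group its slides stood apart. contig_2086 was higher on slide 2 by 0.53 (SE 0.14, adjusted p = 0.0184 by limma), with levels of 3.08 to 3.93 on slide 2 against 2.73 to 3.52 on slide 1. For these 4 contigs the sign was the same in all alternatives, and contig_2370, contig_2791 and contig_2298 each passed in 28 of 29 and contig_2086 in 26 of 29.

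Among the 10 brightest, 3 members passed for slide. contig_2392 was lower on slide 2 by a difference of -0.33 (adjusted p = 0.0131 by limma), contig_407 by -0.48 (adjusted p = 0.00991) and contig_530 by -0.43 (adjusted p = 0.0235). All 3 were higher on slide 2 without scaling, by 0.41, 0.26 and 0.31, and none passed after quantile normalization, where their differences were 0.32, -0.28 and -0.13. On the values of the authors' deposited table all 3 were lower on slide 2 and passed, at -1.12, -1.33 and -1.04, and 8 of the 10 brightest passed there. contig_42 differed between the slides by 0.06 (SE 0.14), by 0.80 without scaling and by -0.72 in the authors' deposited table.

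Separately by exposure, 24 members passed for slide among cyfluthrin arrays, all lower on slide 2, against 12.9% of all tested probes, and 2.13% that passed as lower. Among control arrays 4 members passed, 1 higher and 3 lower, against 2.44% of all tested probes, 1.56% higher and 0.873% lower. The interaction above is the test of that gap, and it passed in 0 members. How small a gap it could find was not tested.

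Members varied together from array to array. After taking out the mean of each group on each slide, the median Pearson correlation over the 19900 pairs of members was 0.29, against 0.07 over pairs of the 7481 tested probes with a value on every array. The tested probes also had a larger median SD within groups, 0.43 against 0.28 in members. No such correlation is given for other bright probes alone, so the gap is not shown to be particular to members. These correlations rest on 16 arrays and share the scaling of each array. Grouped by average linkage at a correlation of 0.7, 86 members fell into 10 clusters of 5 or more, the largest with 22 members, and 18 members stood alone. The closest pair was contig_1789 and contig_3402, at 0.967: contig_1789 had levels of 3.77 to 5.10 on cyfluthrin arrays and 3.02 to 4.96 on control arrays, and contig_3402 of 3.81 to 5.22 on cyfluthrin arrays and 2.80 to 4.85 on control arrays. Whether such pairs are pieces of 1 transcript cannot be told from contig numbers.

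The largest cluster, led by contig_1222 and contig_696, had SDs within groups from 0.14 to 0.48. Its mean deviation from each member's overall mean ran from -0.18 to 0.22 on cyfluthrin arrays and from -0.51 to 0.19 on control arrays. The value of -0.51 was control replicate 3. The cluster's differences between cyfluthrin and control ran from -0.29 to 0.45 with a median of 0.04, and 0 of its members passed.

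The cluster of 13, led by contig_530 and contig_2945, ran from -0.34 to 0.25 on cyfluthrin arrays and from -0.42 to 0.35 on control arrays, and its lowest array was again control replicate 3. The cluster of 10, led by contig_2392 and contig_2721, ran from -0.26 to 0.26 on cyfluthrin arrays and from -0.36 to 0.26 on control arrays, with control replicate 6 lowest. In both clusters 0 members passed for cyfluthrin against control.

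Correlations within the clusters of 22 and 13 were lower without control replicate 3 and after quantile normalization. Those within the cluster of 10 changed little. In 2 alternatives chosen after seeing the data, the median correlation within the cluster of 22, 0.75, was 0.53 without control replicate 3 and 0.50 after quantile normalization. For the cluster of 13, at 0.81, it was 0.68 without control replicate 3 and 0.51 after quantile normalization. For the cluster of 10, at 0.81, it was 0.82 without control replicate 3 and 0.80 after quantile normalization. Over all pairs of members the median was 0.17 without control replicate 3 and 0.14 after quantile normalization. The matching medians over all tested probes are not given.

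**Figure D5:**
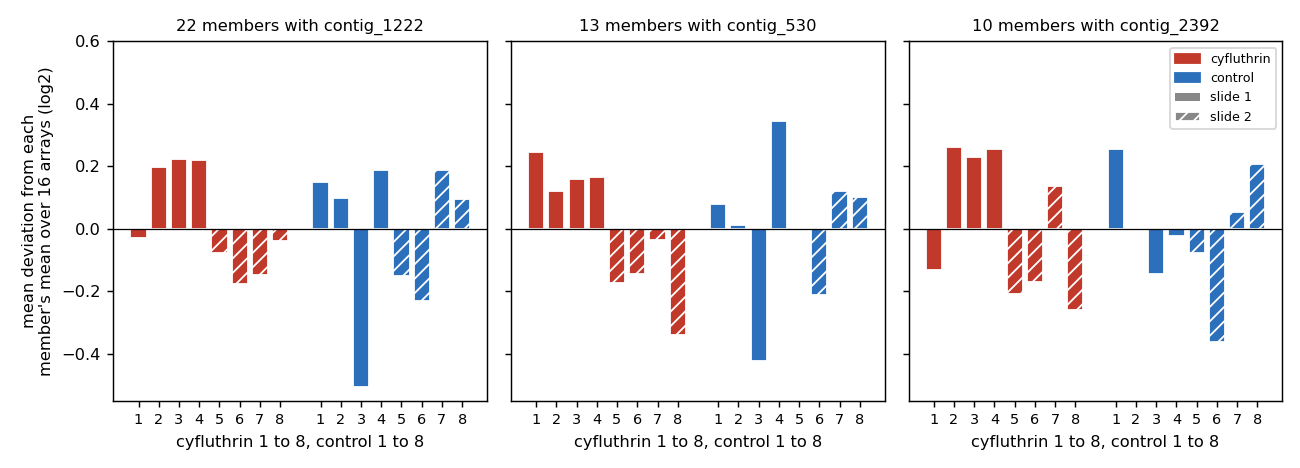
Mean deviation (log2) from each member's mean over 16 arrays, for the 3 largest clusters of members, with cyfluthrin replicates 1 to 8 left of control replicates 1 to 8 and hatched bars for slide 2. Control replicate 3 reaches -0.51 in the cluster of 22 and -0.42 in the cluster of 13, while control replicate 6 is lowest, at -0.36, in the cluster of 10.

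Members were unevenly spread over the contig numbers. Their median number was 2439.5, against 4312 for all probes. Of the members, 45 (22.5%) lay among the 851 probes of lowest number and 36 (18%) among the next 851, while the 851 probes of highest number held 8 and the 851 before them 4. The labels and files do not say what the numbering follows.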

How the data were processed

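Spot intensity values (processed signal, median signal, local background) come from scanner files deposited by the authors; per the file headers, version 10.7.3.1 of Agilent's Feature Extraction made them, while the submitters' processing notes name 9.1, and the processed signal has the background subtracted. Slide 1 was extracted with protocol GE1_107_Sep09, and GE1-v1_95_Feb07 was the protocol of slide 2. The authors' deposited table holds log2 values; its 8507 probe rows each have a median of 0, and its columns, with medians from -0.04 to 0.06, correlated with quantile-normalized row-centred values at a median of 0.937. Its scaling is not stated.

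Control spots and spots flagged as non-uniform or population outliers were left out. Levels were processed signal over the array's 75th percentile, with a floor of 0.02, on the log2 scale, averaged over spots. limma 3.58.1 in R 4.3.3 (lmFit, eBayes, two-sided) was fitted to all 7556 tested probes, with Benjamini-Hochberg adjustment at 0.05. The main exposure and slide fits were tried on simulated data with independent noise for each probe. The exposure fit recovered 37.2% of simulated 1.5-fold changes and 64.8% of 2-fold changes. These changes were placed at random among the 7481 tested probes with a value on every array. Recovery among members alone was not computed, and the outcome of the slide fit is not given. The interaction, block and within-slide fits were not simulated. The number of arrays limits the precision. Intervals are 95%.

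The members and the choice of tests were made with earlier results of these data known. Named contigs were, by rule, the 10 brightest members, 3 on either side of the last place, the 2 most extreme each way by exposure and by slide, the 2 smallest and 2 largest SDs, the 2 brightest left out for each reason and the 2 brightest of the 3 largest clusters. Replicates were taken from the labels; other laboratories' arrays were not analysed here. Alternatives were other background correction, scaling, floors, filters, weights, blocks, thresholds, rankings and leaving out single arrays. Figures were drawn with matplotlib 3.10.9.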

Additional observations from a re-analysis of the deposited data

Results flagged for a closer look

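Of 78 groups of arrays examined for the named contigs, 1 held an array far from the rest, where about 1 in 20 groups, or 3.9, would by chance. It was contig_2434, a probe as bright as the members but left out because its groups did not overlap: control replicate 3 stood at 4.64, against 5.07 for the nearest and a median of 5.16 over the 8 control arrays. The cyfluthrin arrays stood at 3.59 to 4.46.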

How the results depend on the processing

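Between 187 and 200 members were kept under the other backgrounds, scalings, floors and rankings tried, and 195 to 199 when single arrays were left out. The number of members that passed for cyfluthrin against control, 6, was 0 with median scaling, 0 without scaling, 11 after quantile normalization, 14 with array weights, 10 in the authors' deposited table, 16 with the slide as a block, 1 within slide 2, 2 within slide 1, 2 at a threshold of 0.01, and 2 (without cyfluthrin replicate 2) to 9 (without control replicate 3) when single arrays were left out. For exposure, 173 of all tested probes passed in the main fit, 278 with array weights, 216 in the authors' deposited table and 290 with the slide as a block. There were 91 within slide 2, 95 within slide 1 and 99 at a threshold of 0.01. Without cyfluthrin replicate 2 there were 136, and without control replicate 3 there were 184. The number of members that passed for slide, 43, was 144 without scaling, 83 with array weights, 24 in cyfluthrin arrays only and 4 in control arrays only. It was 23 at a threshold of 0.01, and 32 to 60 when single arrays were left out. Of all tested probes, 1409 passed for slide in the main fit, 5811 without scaling and 2565 with array weights. That number was 972 in cyfluthrin arrays only, 184 in control arrays only and 700 at a threshold of 0.01. The interaction passed in 0 members in every alternative run. With normexp background correction the members' share of signal was 31.1% on cyfluthrin and 30.7% on control arrays; leaving out single arrays gave 34.4% to 35.3% on cyfluthrin and 34.1% to 34.9% on control arrays. The members' median SD within groups was 0.436 with median scaling and 0.440 without scaling, and 0.262 to 0.285 when single arrays were left out. Members in clusters of 5 or more, 86, numbered 137 at a correlation of 0.6, 24 at 0.8, 47 after quantile normalization and 72 without control replicate 3. Apart from what follows from fewer arrays or a stricter threshold, the cause of these shifts was not tested. Same-numbered exposed and control arrays shared a slide and a slide column. Their deviations correlated at -0.38 to 0.72, over 0.1 in 3 of 8 numbers. The own number gave the best match for 4 of 16 arrays, and the main fits did not take the numbers as pairs. With the replicate number as a block, which also allows for the column, 8 members passed for exposure, against 167 of all tested probes. The interaction with that block passed in 0 members. Signal over background limits none of the members, and the 4 arrays per group and slide limit the comparisons within a slide.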
